A study of Prunus avium with 21 samples.

Results

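The comparison described here asks how the effect of hydrogen cyanamide on the transcripts of sweet cherry flower buds at 6 days after treatment (dat) differed from its effect at 3 dat. It takes the treated minus control difference at 6 dat and subtracts from it the treated minus control difference at 3 dat, each on log2(FPKM + 0.5), where FPKM counts fragments relative to the length of the transcript and to all mapped fragments. Its members are the 12 libraries of treated and control buds sampled at 6 and 3 dat, of 21 libraries in the series, with 3 libraries in each of the 4 groups. In the following, "effect" stands for treated minus control on 1 day, and "difference" for the effect at 6 dat minus the effect at 3 dat, so that a negative difference means a lower effect at 6 dat.

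The buds came from *Prunus avium* trees of the cultivar 'Burlat' on SL 64 rootstock. Branches of 3 neighboring trees, numbered 4, 5, and 6, were cut when 77% of the chill requirement had been met, and each tree gave 1 library per group. Values of single libraries stand in the order of these tree numbers. Treated branches were sprayed with 2% Dormex, whose active compound is hydrogen cyanamide, and control branches with water, and both stood in a chamber at 22 to 24°C under constant light, detached from the tree. Each library pooled the flower buds (stages A to D) of 1 whole branch, so it holds every tissue of the bud, and fewer cells of a type cannot be told apart from less RNA per cell.

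Dormant buds of fruit trees need a period of cold before warmth can make them grow. Hydrogen cyanamide replaces a part of that cold and brings forward bud break, and it is known to disturb oxidative metabolism in buds. Buds that leave dormancy loosen their cell walls, take up water, resume growth, and lose the cold-protective proteins of winter.

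Summed FPKM ran from 692389 to 760090 in the 12 libraries, and between 54483 and 63076 transcripts per library reached 0.5 FPKM. For 11 of the 12 libraries, the nearest library by correlation belonged to the same group. The counts behind the values were not used here, so counting intervals cannot be given, and eXpress divided reads shared by isoforms or close copies, which leaves values of isoforms and family members uncertain. Of 11 MADS-box markers, the floral identity transcripts were low, at group means of 0.113 to 1.73 FPKM for a SEPALLATA 1-like and 0.768 to 2.54 FPKM for a PMADS 2 transcript. Most of the summed MADS-box level came from jointless-like and agl24-like transcripts, and it was lower in treated buds on both days, at 88.0 to 108 FPKM in treated and 169.8 to 214 FPKM in control buds at 6 dat, and 109 to 139 FPKM in treated and 245 to 340.0 FPKM in control buds at 3 dat. The summed level of 7 anther and pollen markers was 6.92 to 12.0 FPKM in treated and 12.3 to 14.8 FPKM in control buds at 6 dat, and 8.16 to 20.3 FPKM in treated and 2.09 to 12.7 FPKM in control buds at 3 dat. For 7 green tissue markers it was 10.3 to 15.4 FPKM in treated and 8.50 to 11.8 FPKM in control buds at 6 dat, and 16.8 to 31.5 FPKM in treated and 5.59 to 7.52 FPKM in control buds at 3 dat. No marker of these sets was at 0 in all libraries of a group, and the part of these tissues in the results was not tested.

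At 6 dat the treatment effect was called lower than at 3 dat for 143 transcripts and higher for 59. These are 202 of 62976 transcripts tested, or 0.321% (0.227% lower and 0.0937% higher), in 188 assembled genes. Calls were made by limma at adjusted p ≤ 0.05 and a difference of 1 or more in size, on the 18 treated and control libraries of 1, 3, and 6 dat. Among the 143 called lower, 134 had a positive effect at 3 dat, and 30 had a positive effect at 6 dat. At 6 dat 83 of them lay within 1 log2 unit of the control after a positive effect at 3 dat, and 43 others were more than 1 log2 unit below the control. In 102 of the 143 the control buds had the larger of both changes between the days, with median changes from 3 to 6 dat of -0.53 in treated and 1.44 in control buds. Over all transcripts tested these medians were -0.06 in treated and -0.01 in control buds. Of the 59 called higher, 54 had a positive effect at 6 dat and 6 at 3 dat. The median effect over all transcripts tested was -0.09 at 6 dat and -0.03 at 3 dat. The calls were chosen on these same values, so the counts and medians of the called transcripts only describe them.

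**Figure D1:**
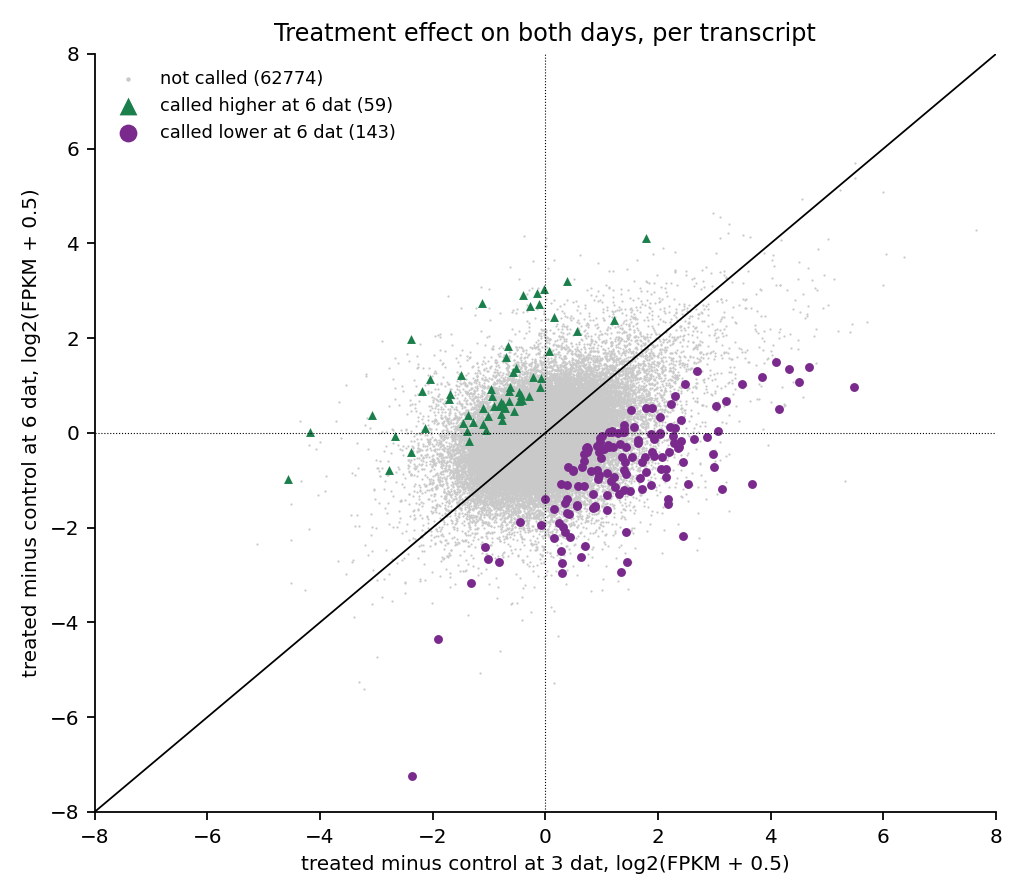
Treated minus control at 6 dat (vertical axis) against treated minus control at 3 dat (horizontal axis), both on log2(FPKM + 0.5), for 62976 transcripts, with the line of equal effects. The 143 transcripts called lower (circles) lie below the line, mostly with positive effects at 3 dat, and the 59 called higher (triangles) lie above it.

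The number of calls rested on the estimate of the spread. With only the 12 libraries of 3 and 6 dat, 7 transcripts were called, 5 of them among the 202 (the estimates are the same, and only their error changes). A dehydration-responsive RD22-like protein and a plastid lipid desaturase isoform, both described below, were the only ones of these 5 with a held description. With isoforms summed per assembled gene, 413 of 29304 genes were called (1.41%), 303 lower and 110 higher. A fit without control tree 4 of 3 dat, or without control tree 6 of that day, gave 81 calls, a fit without treated tree 5 of 6 dat gave 96, and a fit without control tree 4 of 6 dat gave 108. Without both libraries of tree 4 at 1 dat 131 were called. In all, 56 of the 202 were called in each of the 18 fits that left out 1 library. Of the 37 called transcripts chosen by rule for naming, 11 were called in each of these fits, and the fit without control tree 6 of 3 dat lost the most, 24, with adjusted p up to 0.120. The calls for P450 81D11-like, UDP-glycosyltransferase 85A7-like, a low glutathione S-transferase, trehalose-phosphate phosphatase D, scopoletin glucosyltransferase-like, neomenthol dehydrogenase-like, 2 DYSFUNCTIONAL TAPETUM 1 isoforms, and a phosphotransfer protein were made in only 2 to 5 of the 18. Of these 9, DYSFUNCTIONAL TAPETUM 1 isoform TR35411|c2_g3_i8 fell under the filter on low values when the libraries were rescaled by median ratios, and the others missed the threshold there, as did a 12-oxophytodienoate reductase 2-like transcript (called in 8 of 18), at adjusted p of 0.0550 to 0.0690. All 37 kept the sign of the difference in every fit that left out 1 library and tested them.

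The 12-oxophytodienoate reductases act on cyclopentenone oxylipins, and a member of this family takes part in jasmonate synthesis in *Arabidopsis*. *OPR2* (TR13558|c2_g1_i1) stood at 8.46, 5.17, and 2.87 FPKM in treated and 4.17, 4.63, and 2.02 FPKM in control buds at 6 dat. At 3 dat it stood at 17.8, 36.3, and 10.1 FPKM in treated and 0.465, 1.16, and 0.298 FPKM in control buds. The groups were far apart at 3 dat and overlapped at 6 dat, where treated buds were lower and control buds higher than 3 days before. The effect was 0.50 at 6 dat and 4.15 at 3 dat, a difference of -3.65 (SE 0.69, adjusted p = 0.0320). The first 120 bases of its coding sequence are shown with those of 2 transcripts described below that came close to the threshold, an ACC oxidase homolog 1-like transcript (*ACO*) and the expansin *EXPA11*. They come from the study's sheet of transcript sequences, run 5′ to 3′, and begin at the start codon of the longest open reading frame in the held 399 bases, printed in capitals.
OPR2: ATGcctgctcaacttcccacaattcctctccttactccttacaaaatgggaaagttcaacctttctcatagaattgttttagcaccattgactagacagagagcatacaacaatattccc
ACO: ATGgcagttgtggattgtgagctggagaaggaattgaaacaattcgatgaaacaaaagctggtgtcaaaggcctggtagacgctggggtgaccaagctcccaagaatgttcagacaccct
EXPA11: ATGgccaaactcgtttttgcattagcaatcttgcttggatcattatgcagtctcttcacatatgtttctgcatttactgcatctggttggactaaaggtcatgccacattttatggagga

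The call for *OPR2* was made in 10 of 18 fits that left out 1 library, with differences of -4.08 to -3.18. It was lost when any of 8 libraries was left out, namely treated trees 5 and 6 and control trees 4 and 5 of 6 dat, and treated trees 4 and 5 and control trees 4 and 6 of 3 dat. A second locus that the study also names *OPR2* (TR13558|c1_g1_i9) had 9.60, 5.62, and 5.04 FPKM in treated and at most 0.429 FPKM in control buds at 6 dat, and 18.4, 40.3, and 9.27 FPKM in treated and 2.23, 0, and 0 FPKM in control buds at 3 dat. There treated buds were above control buds on both days, the effect was 3.25 at 6 dat and 4.48 at 3 dat, and the difference of -1.23 (SE 0.85, adjusted p = 0.671) was not called. Summed over the 10 isoforms of its assembled gene the difference was -2.38 (SE 0.53, adjusted p = 0.0272). Another 12-oxophytodienoate reductase 2-like transcript (TR25333|c0_g2_i1) had 28.5, 22.2, and 23.7 FPKM in treated and 29.4, 25.9, and 30.7 FPKM in control buds at 6 dat. The values at 3 dat were 41.7, 78.6, and 28.3 FPKM in treated and 12.3, 17.1, and 13.6 FPKM in control buds. Treated buds were above all control buds at 3 dat and, but for tree 4, below the lowest control library at 6 dat, a difference of -1.85 (SE 0.36, adjusted p = 0.0336) that missed the threshold in the fit blocked by tree (adjusted p = 0.0535). Of 38 family members tested in 20 assembled genes, 2 were called lower and none higher, and summed per gene 4 were called lower. For comparison, 0.227% of all transcripts and 64 of 3497 with a held description were called lower. Of the 2604 genes with a held description, 123 were called lower. All 38 differences were negative, against 53.6% of all transcripts tested and 64.6% of those with a held description. Their median was -2.11, against -0.05 and -0.29. The median effect of the family was 0.49 at 6 dat and 2.97 at 3 dat. The members carry descriptions from the study's tables of transcripts it called on these buds, are isoforms and close copies that share reads, and so are no independent evidence of direction.

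No other jasmonate enzyme that the study names passed the test. Allene oxide cyclase (*AOC*), which follows allene oxide synthase (*AOS*) in the pathway, averaged 79.7 ± 25.5 FPKM in treated and 48.9 ± 20.8 FPKM in control buds at 6 dat, and 64.8 ± 11.1 FPKM in treated and 26.3 ± 15.0 FPKM in control buds at 3 dat (SD, n = 3). Its difference of -0.66 (SE 0.47, adjusted p = 0.679) did not pass, and *AOS* differed by -0.30 (SE 0.31, adjusted p = 0.810). *ACX4*, an acyl-CoA oxidase of the peroxisome, had effects of 0.79 at 6 dat and 0.66 at 3 dat and a difference of 0.13 (SE 0.15, adjusted p = 0.833). For MYB21 and MYB108, transcription factors of jasmonate-dependent stamen development in *Arabidopsis*, the differences were 0.17 and -0.18, with adjusted p of 0.907 and 0.952. A 23 kDa jasmonate-induced protein-like transcript (TR659|c0_g1_i1) was called higher. It had 4.04, 2.41, and 2.14 FPKM in treated and 0.0704, 0.0757, and 0.145 FPKM in control buds at 6 dat, was at most 0.0860 FPKM in treated buds at 3 dat, and was listed at 0 in all control libraries of 3 dat. Its difference was 2.30 (SE 0.35, adjusted p = 0.0119). Of 25 transcripts in the wider jasmonate list, this was the only call, with a median difference of -0.32 over the list. With isoforms summed, 1 of the 17 genes in it was called higher and 1 lower.

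ACC oxidase carries out the last step of ethylene synthesis and releases cyanide. The transcript that the study names *ACO* (TR18526|c0_g1_i1) is described as ACC oxidase homolog 1-like, and whether it has this activity was not tested. It had 7.13, 3.08, and 7.32 FPKM in treated and 0.473, 2.36, and 2.31 FPKM in control buds at 6 dat. On the earlier day it had 24.8, 15.6, and 18.7 FPKM in treated and 0.517, 1.18, and 0.748 FPKM in control buds, so treated and control buds did not overlap on either day. Its effects were 5.52, 3.95, and 1.59 at 1, 3, and 6 dat. The difference of -2.36 (SE 0.54, adjusted p = 0.0771) missed the threshold, and the same values passed when assembled genes were tested (adjusted p = 0.0294). The ACC synthase *ACS* (TR20901|c0_g1_i1), which makes the precursor of ethylene, kept effects of 2.63 at 6 dat and 2.52 at 3 dat, with a difference of 0.12 (SE 0.83, adjusted p = 0.981) and 23.5, 4.99, and 3.49 FPKM in the treated buds at 6 dat. For *SAMS 3*, an S-adenosylmethionine synthase, the difference was -0.78 (SE 0.25, adjusted p = 0.223). None of 29 transcripts of ethylene synthesis and signalling was called, and their median difference was -0.63. The ethylene-responsive transcription factor ERF113 (TR6720|c1_g1_i1) passed on adjusted p only. Its difference of -0.997 (SE 0.17, adjusted p = 0.0167) was just under the limit of 1. With isoforms summed, 2 of the 26 genes in this list were called lower and none higher.

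A non-symbiotic hemoglobin isoform (TR9690|c0_g1_i3) averaged 10.5 ± 4.47 FPKM in treated and 11.2 ± 5.15 FPKM in control buds at 6 dat, and 16.9 ± 8.82 FPKM in treated and 1.72 ± 0.428 FPKM in control buds at 3 dat (SD, n = 3). Such hemoglobins bind oxygen, scavenge nitric oxide, and are induced when oxygen is short. Treated and control buds overlapped at 6 dat and were well apart at 3 dat, a difference of -2.97 (SE 0.55, adjusted p = 0.0292), called in 13 of 18 fits that left out 1 library. The isoform held only a small share of its gene. The sum of its 3 isoforms was 456, 362, and 323 FPKM in treated and 236, 227, and 158 FPKM in control buds at 6 dat, and 469.8, 892, and 374 FPKM in treated and 68.8, 86.6, and 67.7 FPKM in control buds at 3 dat. On these sums the effect also was lower at 6 dat, by a difference of -1.98 (SE 0.42, adjusted p = 0.0241), while treated buds stayed above control buds on both days. Of 8 hypoxia-associated transcripts in 4 assembled genes, 5 had a negative difference. The alcohol dehydrogenase-like (0.39 and 0.64) and LOB domain-containing protein 1-like (0.60) members had positive differences that did not pass.

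The 5′-adenylylsulfate (APS) reductase transcript TR25938|c1_g3_i2, from the regulated step that feeds sulfate into cysteine and glutathione, had 30.9, 33.9, and 26.9 FPKM in treated and 27.8, 30.6, and 61.2 FPKM in control buds at 6 dat. Levels at 3 dat were 99.4, 147, and 54.0 FPKM in treated and 11.5, 24.6, and 18.5 FPKM in control buds. All treated libraries exceeded all control libraries at 3 dat, and the groups overlapped at 6 dat. The effect was 0.73, 2.38, and -0.29 at 1, 3, and 6 dat, and the difference -2.67 (SE 0.50, adjusted p = 0.0290) was called in 11 of 18 fits that left out 1 library. A second APS reductase (TR20138|c0_g1_i1) came near with -1.75 (SE 0.37, adjusted p = 0.0563). Of 13 transcripts of sulfate assimilation, 1 was called lower and none higher, against 64 lower of 3497 with a held description. A negative difference was found in 12 of the 13, against 64.6% of all transcripts with a held description, and the median was -0.89. As single transcripts, adenylyl-sulfate kinase, sulfite reductase, cysteine synthase, and sulfate transporter members did not pass. With isoforms summed, 3 of the 12 genes in this list were called lower, against 123 of 2604 with a held description.

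Glutathione S-transferases couple glutathione to reactive compounds. The transcript TR33081|c1_g1_i1 had 81.3, 68.2, and 102 FPKM in treated and 184, 145, and 76.2 FPKM in control buds at 6 dat. The buds of 3 dat had 73.1, 151, and 66.1 FPKM in treated and 30.7, 24.4, and 26.4 FPKM in control buds. Treated buds were above control buds at 3 dat, and the groups overlapped at 6 dat, when every control library was higher than any of 3 dat. Its effects were 4.50, 1.72, and -0.61 at 1, 3, and 6 dat, with a difference of -2.33 (SE 0.41, adjusted p = 0.0231). A second member, TR21434|c0_g2_i1, was low in every group but the treated buds of 3 dat, with 3.19, 5.26, and 2.66 FPKM there and at most 0.688 FPKM in the other 9 libraries. Its difference was -2.21 (SE 0.46, adjusted p = 0.0494), not called in the fit blocked by tree (adjusted p = 0.0725). In the list of 48 glutathione S-transferases these were the only calls, and the median effects were 1.21 at 6 dat and 1.86 at 3 dat. Of all transcripts with a held description, 64 of 3497 were called lower. With isoforms summed, 3 of the 24 glutathione S-transferase genes were called lower, against 123 of 2604 with a held description. *GST23* (TR33680|c0_g2_i1) varied widely between trees, at 8.19, 0.861, and 5.86 FPKM in the treated buds of 6 dat, and differed by -0.92 (SE 1.41, adjusted p = 0.885).

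A (+)-neomenthol dehydrogenase-like transcript (TR13670|c2_g4_i1), a short-chain reductase, had 116, 80.0, and 75.8 FPKM in treated and 34.0, 35.6, and 24.9 FPKM in control buds at 6 dat. At 3 dat it had 124, 248, and 61.8 FPKM in treated and 9.18, 7.41, and 4.53 FPKM in control buds. Treated buds exceeded control buds on both days, and the distance was smaller at 6 dat, a difference of -2.59 (SE 0.52, adjusted p = 0.0396). The control buds had changed by 2.12 between the days and the treated buds by -0.47. This was the only call in the list of 74 alkenal and furanone reductases, of which 63 had a negative difference and whose median was -1.39. That list was made by words in descriptions and takes in this short-chain reductase as well. With isoforms summed, 6 of its 24 genes were called lower and none higher, against 123 lower of 2604 with a held description. Among all transcripts with a held description 64.6% had a negative difference, with a median of -0.29. A scopoletin glucosyltransferase-like isoform (TR13155|c3_g3_i4) differed by -2.96 (SE 0.60, adjusted p = 0.0472), and a cytochrome P450 81D11-like isoform (TR13358|c1_g1_i4) by -3.67 (SE 0.75, adjusted p = 0.0472). Both calls were lost in the fit blocked by tree, at adjusted p of 0.0633 and 0.0581. Summed over its isoforms, the P450 gene differed by only -0.49 (SE 0.27, adjusted p = 0.414), and the glucosyltransferase gene by -1.51 (SE 0.37, adjusted p = 0.0427).

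**Figure D2:**
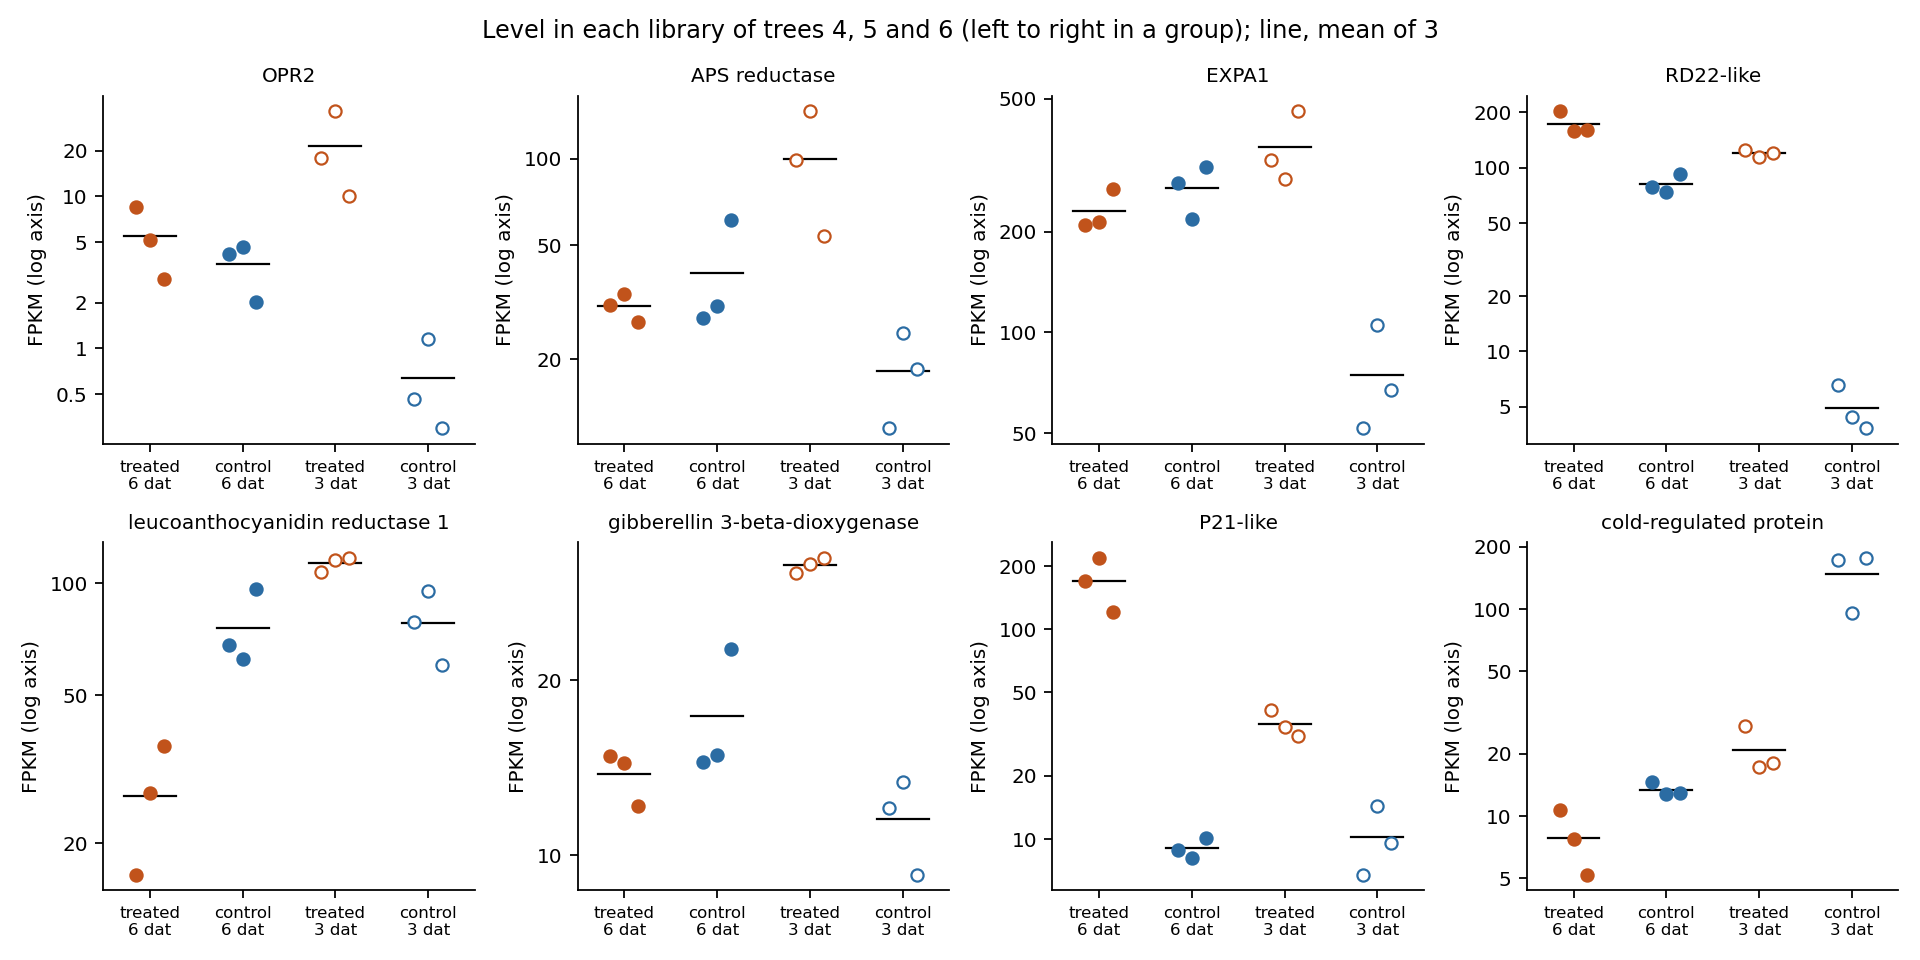
FPKM of 8 transcripts (log axis) in each library, with treated (orange) and control (blue) buds at 6 dat (filled) and 3 dat (open), and the mean of the 3 libraries as a line. For OPR2, APS reductase, and EXPA1 treated buds stood above control buds at 3 dat and overlapped them at 6 dat, RD22-like stayed higher with a smaller distance, gibberellin 3-beta-dioxygenase came down to the control level, leucoanthocyanidin reductase 1 stood below control buds at 6 dat only, P21-like moved further above them, and the cold-regulated protein was below them on both days.

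Expansins loosen cell walls and let cells enlarge. *EXPA1* (TR9861|c0_g1_i4) was among the most abundant called transcripts, with 209, 215, and 269 FPKM in treated and 281, 218, and 313 FPKM in control buds at 6 dat. The values at 3 dat were 328, 289, and 459 FPKM in treated and 51.7, 105, and 67.2 FPKM in control buds. Every treated library was above every control library at 3 dat, and the groups overlapped at 6 dat. The change between the days was -0.61 in treated and 1.90 in control buds, and the difference of -2.51 (SE 0.33, adjusted p = 0.00679) was called in every fit that left out 1 library. An expansin (TR33092|c2_g1_i1) had 75.5, 71.2, and 99.0 FPKM in treated and 59.8, 38.6, and 63.3 FPKM in control buds at 6 dat. On the earlier day it had 105, 118, and 100.2 FPKM in treated and 18.3, 28.0, and 22.3 FPKM in control buds. Treated buds stayed above control buds on both days, but the effect was 0.62 at 6 dat and 2.23 at 3 dat, a difference of -1.61 (SE 0.29, adjusted p = 0.0240). Another expansin of the same assembled cluster (TR33092|c6_g1_i1) differed by -1.37 (SE 0.28, adjusted p = 0.0489). Its call was made in 2 of 18 fits that left out 1 library, and was lost after rescaling and in the fit blocked by tree (adjusted p = 0.0713).

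The difference for *EXPA11* was -1.68 (SE 0.40, adjusted p = 0.0886), past the threshold only when assembled genes were tested (adjusted p = 0.0328). It had 7.10, 9.85, and 9.51 FPKM in treated and 6.19, 5.82, and 10.6 FPKM in control buds at 6 dat. In the libraries of 3 dat it had 9.47, 12.9, and 11.3 FPKM in treated and 1.85, 4.00, and 2.20 FPKM in control buds, again with overlap at 6 dat only. Expansin-like B1 (*EXLB1*) stood apart with effects of 2.17 at 6 dat and 2.41 at 3 dat and a difference of -0.24 (SE 0.71, adjusted p = 0.951). Of the 7 expansins tested, 3 were called lower, or 2 of 7 in the fit blocked by tree, and none was higher. Of all transcripts 0.227% were called lower, and of those with a held description 64 of 3497. The expansins were taken from the described transcripts, and 2 of the 3 called belong to the same assembled cluster, so the count is no independent evidence. The median effect of the 7 was 0.52 at 6 dat and 1.93 at 3 dat. The 3 called expansins were the only calls among 82 cell wall enzymes and expansins, whose median difference was -0.28. With isoforms summed, 7 of the 47 genes in this list were called lower and 1 higher. Of 2604 genes with a held description, 123 were called lower and 29 higher. The 1,3-beta-D-glucanase *1,3BG*, from a family that degrades callose, averaged 46.8 ± 11.4 FPKM in treated and 28.6 ± 8.36 FPKM in control buds at 6 dat, and 86.8 ± 37.7 FPKM in treated and 20.3 ± 1.11 FPKM in control buds at 3 dat (SD, n = 3), a difference of -1.25 (SE 0.38, adjusted p = 0.183).

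UDP-glucose 6-dehydrogenase 5 (TR34059|c0_g1_i2), which makes a sugar precursor of pectin and hemicellulose, had 6.62, 7.18, and 7.55 FPKM in treated and 19.4, 17.4, and 14.2 FPKM in control buds at 6 dat. Levels at 3 dat were 4.72, 5.56, and 4.83 FPKM in treated and 3.37, 0.497, and 0.735 FPKM in control buds. Treated buds lay above control buds at 3 dat and below them at 6 dat, without overlap on either day, and control buds changed by 3.37 against 0.46 in treated buds. The difference was -2.91 (SE 0.52, adjusted p = 0.0240). Summed over the 2 isoforms of its gene, the difference was -1.65 (SE 0.29, adjusted p = 0.00861). In control buds this isoform held 75.1% of the sum at 6 dat and 28.7% at 3 dat. Peroxidase 51-like (TR8335|c0_g2_i1), a class III peroxidase of the wall, had effects of 0.79 at 6 dat and 2.31 at 3 dat and a difference of -1.52 (SE 0.27, adjusted p = 0.0243).

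Gibberellin 3-beta-dioxygenase makes the bioactive gibberellins. Of its 2 isoforms, TR19776|c0_g2_i2 had 14.8, 14.4, and 12.2 FPKM in treated and 14.5, 14.9, and 22.6 FPKM in control buds at 6 dat. The buds of 3 dat had 30.6, 31.7, and 32.5 FPKM in treated and 12.1, 13.3, and 9.26 FPKM in control buds. The treated libraries of 3 dat lay close together and above the other 9 libraries, and at 6 dat treated and control buds overlapped. Its effects were 1.88, 1.43, and -0.29 at 1, 3, and 6 dat, and the difference was -1.72 (SE 0.25, adjusted p = 0.0101). The second isoform (TR19776|c0_g2_i3) had 1.37, 1.34, and 1.69 FPKM in treated and 4.55, 3.71, and 3.22 FPKM in control buds at 6 dat. At 3 dat it had 4.81, 6.59, and 4.84 FPKM in treated and 1.89, 2.09, and 1.97 FPKM in control buds, so treated buds were above control buds at 3 dat and below them at 6 dat. It differed by -2.37 (SE 0.34, adjusted p = 0.0105). Both calls held in every fit that left out 1 library, and the gene as a whole differed by -1.88 (SE 0.20, adjusted p = 0.00171). They were the only calls among 18 gibberellin transcripts, where gibberellin 2-beta-dioxygenases, which inactivate gibberellins, had differences of -3.37 to 1.66 that did not pass. Of all transcripts with a held description, 64 of 3497 were called lower. With isoforms summed, 2 of the 12 gibberellin genes were called lower and 1 higher.

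The dehydration-responsive protein RD22-like (TR13578|c2_g4_i1), whose *Arabidopsis* counterpart responds to drought and abscisic acid, had 203, 158, and 161 FPKM in treated and 78.2, 74.1, and 92.8 FPKM in control buds at 6 dat. The values at 3 dat were 124, 114, and 121 FPKM in treated and 6.59, 4.42, and 3.82 FPKM in control buds. Groups did not overlap on either day. The control buds changed by 3.94 between the days and the treated buds by 0.53, and the difference of -3.41 (SE 0.43, adjusted p = 0.00644) was called with only the 12 libraries of 3 and 6 dat as well (adjusted p = 0.000792). Its gene has 11 isoforms, and their sum, at 835, 693, and 810.4 FPKM in treated and 766, 629, and 703 FPKM in control buds at 6 dat, differed by -0.71 (SE 0.12, adjusted p = 0.00782), under the limit of 1.

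Phloem protein 2-like A1 (TR27963|c0_g1_i1), a lectin of the phloem, had 5.70, 19.1, and 6.80 FPKM in treated and 22.8, 8.85, and 17.9 FPKM in control buds at 6 dat. On the earlier day it had 8.53, 5.23, and 7.61 FPKM in treated and 0.261, 0.424, and 0.668 FPKM in control buds. Control buds were all under 1 FPKM at 3 dat and overlapped treated buds at 6 dat, after a change of 4.08, while treated buds changed by 0.36, a difference of -3.72 (SE 0.57, adjusted p = 0.0119). NAC domain-containing protein 2-like (TR12984|c3_g1_i2), a transcription factor, averaged 99.7 ± 35.9 FPKM in treated and 66.4 ± 17.1 FPKM in control buds at 6 dat, and 89.1 ± 42.5 FPKM in treated and 10.4 ± 4.79 FPKM in control buds at 3 dat (SD, n = 3). Its effects were 4.21, 3.02, and 0.56 at 1, 3, and 6 dat, the difference was -2.46 (SE 0.46, adjusted p = 0.0320), and it was the only call among 63 ERF, WRKY, NAC, and MYB factors. With isoforms summed, 2 of the 54 genes of these factors were called lower and none higher. A histidine-containing phosphotransfer protein 1-like isoform (TR26700|c2_g1_i9), from the relay that carries cytokinin signals, had 2.34, 1.86, and 8.18 FPKM in treated and 3.13, 4.73, and 7.28 FPKM in control buds at 6 dat. In the libraries of 3 dat it had 3.99, 6.05, and 2.81 FPKM in treated buds and was listed at 0 in the control libraries of trees 4 and 5 and at 0.290 FPKM in that of tree 6. The difference of -3.43 (SE 0.66, adjusted p = 0.0336) was called in only 5 of 18 fits that left out 1 library. This isoform held 2.66% to 15.0% of the summed group means of the 10 isoforms of its gene. The summed difference of -5.19 (SE 1.45, adjusted p = 0.0720) was not called.

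Some transcripts were below the control at 6 dat. Leucoanthocyanidin reductase 1 (TR34398|c0_g1_i1), which makes units of condensed tannins, had 16.5, 27.4, and 36.5 FPKM in treated and 68.2, 62.6, and 96.3 FPKM in control buds at 6 dat. Levels at 3 dat were 107, 116, and 117 FPKM in treated and 78.8, 95.2, and 60.3 FPKM in control buds. Here the treated buds changed, by -2.13, and the control buds stayed near their level of 3 dat (-0.05), so that treated buds lay above control buds at 3 dat and below them at 6 dat without overlap. The difference was -2.08 (SE 0.33, adjusted p = 0.0139) and held in every fit that left out 1 library. A cinnamoyl-CoA reductase 2-like isoform (TR38015|c5_g1_i4), from the branch toward lignin, averaged 2.48 ± 1.19 FPKM in treated and 8.06 ± 2.69 FPKM in control buds at 6 dat, and 9.32 ± 1.28 FPKM in treated and 4.95 ± 1.58 FPKM in control buds at 3 dat (SD, n = 3), a difference of -2.45 (SE 0.44, adjusted p = 0.0250). Both were the only calls among 56 phenylpropanoid and flavonoid enzymes, and *PAL1*, which opens that pathway, differed by -0.62 (SE 0.26, adjusted p = 0.387). With isoforms summed, 3 of the 42 genes in this list were called lower and none higher.

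The largest negative difference among described transcripts, -4.87 (SE 0.40, adjusted p = 0.000174), belonged to an isoform of a palmitoyl-monogalactosyldiacylglycerol delta-7 desaturase (TR26734|c4_g2_i1), an enzyme of plastid membrane lipids. At 6 dat it was at most 0.0178 FPKM in treated buds and 89.2, 70.4, and 70.4 FPKM in control buds, and at 3 dat it had 62.8, 20.7, and 59.5 FPKM in treated and 247, 188, and 239 FPKM in control buds. The assembled gene has 16 isoforms, and their sum did not show this. It was 25.9, 34.2, and 45.6 FPKM in treated and 105, 84.4, and 89.6 FPKM in control buds at 6 dat, and 81.8, 53.6, and 84.0 FPKM in treated and 259, 210.3, and 259 FPKM in control buds at 3 dat, a difference of 0.33 (SE 0.26, adjusted p = 0.612). The value thus describes 1 isoform as eXpress divided the reads. The same holds for a transmembrane and coiled-coil domain-containing protein 4-like isoform (TR13099|c1_g1_i10), which differed by -3.50 alone and by 0.06 with its 8 isoforms summed.

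Oligopeptide transporter 1 (TR12263|c7_g1_i4), which carries small peptides, had at most 1.07 FPKM in treated and 7.47, 5.12, and 5.04 FPKM in control buds at 6 dat, and 0.684, 1.93, and 2.52 FPKM in treated and at most 0.506 FPKM in control buds at 3 dat. Its difference was -4.17 (SE 0.75, adjusted p = 0.0240), and -1.27 (SE 0.20, adjusted p = 0.00475) for its gene. A probable trehalose-phosphate phosphatase D (TR9034|c0_g1_i1), which acts on the sugar signal trehalose 6-phosphate, had effects of -0.97 at 6 dat and 0.94 at 3 dat, a difference of -1.91 (SE 0.38, adjusted p = 0.0385) that was lost in the fit blocked by tree (adjusted p = 0.0572). Summed over its 2 isoforms, the phosphatase gene differed by -2.37 (SE 0.44, adjusted p = 0.0116). The adenylate isopentenyltransferase *IPT3* (TR4571|c0_g1_i1), which starts cytokinin synthesis, had 0.771, 0.437, and 0.847 FPKM in treated and 2.51, 1.78, and 2.07 FPKM in control buds at 6 dat. The buds of 3 dat had 2.34, 0.891, and 2.28 FPKM in treated and 0.938, 0.777, and 0.891 FPKM in control buds. Treated buds were all below control buds at 6 dat, while at 3 dat trees 4 and 6 were above them, but the difference of -1.85 (SE 0.42, adjusted p = 0.0766) passed only when assembled genes were tested (adjusted p = 0.0231).

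In the anther list of 7 transcripts, 2 isoforms of DYSFUNCTIONAL TAPETUM 1, a transcription factor needed for the pollen-feeding layer of the anther in *Arabidopsis*, were called lower. Isoform TR35411|c2_g3_i5 had 0.0561, 0.250, and 0.686 FPKM in treated and 1.94, 1.31, and 0.273 FPKM in control buds at 6 dat. At 3 dat it had 2.24, 3.96, and 1.29 FPKM in treated buds and at most 0.271 FPKM in control buds. It differed by -3.08 (SE 0.62, adjusted p = 0.0412), lost in the fit blocked by tree (adjusted p = 0.0572), and isoform TR35411|c2_g3_i8 by -2.82 (SE 0.55, adjusted p = 0.0345), called in only 5 of 18 fits that left out 1 library. Both isoforms are among the 7 anther and pollen markers whose sums are given above. Of all transcripts with a held description, 64 of 3497 were called lower. The sum of all 12 isoforms of the gene differed by -0.95 (SE 0.19, adjusted p = 0.0158), just under the limit of 1, and was 6.05, 6.39, and 9.08 FPKM in treated and 9.25, 9.01, and 9.66 FPKM in control buds at 6 dat, and 14.1, 17.1, and 13.1 FPKM in treated and 9.27, 9.42, and 10.4 FPKM in control buds at 3 dat.

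Of the transcripts called higher, a first set had treated buds above control buds at 6 dat by more than at 3 dat. An effect at 3 dat that was already clearly positive was seen for P21-like. At 3 dat the effect was -0.39 for UDP-glycosyltransferase 85A7-like, -0.14 for ARG7-like, and -0.02 for P450 704B1, all described below. The P21-like protein (TR26377|c0_g3_i1), of the thaumatin type of defense proteins, had 169.6, 219, and 120.1 FPKM in treated and 8.82, 8.11, and 10.1 FPKM in control buds at 6 dat. The values at 3 dat were 41.2, 34.1, and 31.1 FPKM in treated and 6.77, 14.4, and 9.60 FPKM in control buds. Treated buds exceeded control buds on both days, and between the days treated buds changed by 2.21 and control buds by -0.12. Its effects were -0.06, 1.79, and 4.12 at 1, 3, and 6 dat, a difference of 2.33 (SE 0.44, adjusted p = 0.0313). Peroxidase 21 (TR39304|c0_g1_i2) had 4.56, 5.94, and 4.13 FPKM in treated and 0.315, 0.279, and 0.314 FPKM in control buds at 6 dat. At 3 dat it was at most 0.369 FPKM in treated and 0.291 FPKM in control buds, and the difference of 2.85 (SE 0.37, adjusted p = 0.00644) held in every fit that left out 1 library.

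An indole-3-acetic acid-induced protein ARG7-like transcript (TR11827|c1_g1_i2), from a family of small auxin-induced proteins, had 21.3, 18.0, and 9.57 FPKM in treated and 1.73, 1.02, and 2.06 FPKM in control buds at 6 dat. No library of 3 dat exceeded 0.151 FPKM. It differed by 3.10 (SE 0.46, adjusted p = 0.0109), also in every fit that left out 1 library, and was the only call among 12 auxin transcripts. The auxin synthesis gene *YUC10* had effects of -2.20 at 6 dat and -1.27 at 3 dat, but its difference of -0.93 (SE 0.44, adjusted p = 0.479) did not pass. Cytochrome P450 704B1 (TR9254|c1_g1_i1), which hydroxylates fatty acids for the pollen wall in *Arabidopsis*, had 4.88, 9.70, and 2.85 FPKM in treated and 0, 0.0294, and 0.732 FPKM in control buds at 6 dat, and at most 0.0356 FPKM in any library of 3 dat. The 3 isoforms of its gene summed to 18.7, 54.6, and 7.95 FPKM in treated buds at 6 dat. In control buds of that day they summed to 0, 0.272, and 8.66 FPKM, so the groups overlapped. The summed difference of 3.82 (SE 1.18, adjusted p = 0.107) was not called. A UDP-glycosyltransferase 85A7-like transcript (TR30700|c0_g1_i1) had 4.61, 14.8, and 16.5 FPKM in treated and 0.252, 0.910, and 2.40 FPKM in control buds at 6 dat. The P450 differed by 3.07 (SE 0.59, adjusted p = 0.0333) and the glycosyltransferase by 3.31 (SE 0.68, adjusted p = 0.0472), and both calls were lost in the fit blocked by tree (adjusted p = 0.0572 and 0.0586).

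A second set was below the control at 3 dat and closer to it at 6 dat. A cold-regulated protein (TR34290|c0_g1_i1) had 10.7, 7.74, and 5.21 FPKM in treated and 14.5, 12.8, and 12.9 FPKM in control buds at 6 dat. On the earlier day it had 27.1, 17.2, and 18.1 FPKM in treated and 172, 95.2, and 177 FPKM in control buds. Treated buds were below control buds on both days, and the distance was smaller at 6 dat, after changes of -1.37 in treated and -3.36 in control buds. A cold-shock protein CS120-like transcript (TR25329|c1_g1_i2), named after a wheat dehydrin, a class of proteins that protects cells against cold and water loss, had 4.52, 3.88, and 4.18 FPKM in treated and 5.53, 4.98, and 6.53 FPKM in control buds at 6 dat. In the libraries of 3 dat it had 13.8, 6.00, and 6.83 FPKM in treated and 45.4, 34.7, and 59.1 FPKM in control buds. Groups did not overlap on either day. Before treatment these transcripts averaged 2181 and 944 FPKM, so both were far lower in all 12 libraries. Their differences were 1.99 (SE 0.35, adjusted p = 0.0229) and 1.99 (SE 0.35, adjusted p = 0.0225). Summed over its 2 isoforms, the CS120-like gene averaged 4.19 FPKM in treated and 8.68 FPKM in control buds at 6 dat. The summed difference was 1.90 (SE 0.35, adjusted p = 0.0113).

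The cold-regulated protein and this CS120-like transcript were the only calls among 21 dehydrins and cold proteins, and none of the others passed. With isoforms summed, 3 of the 11 genes in this list were called higher and none lower. The 7 CS120-like and dehydrin isoforms of the assembled gene TR26333|c2_g1 had effects of -3.38 to -1.93 at 6 dat and -2.78 to -1.96 at 3 dat, with differences of -0.90 to 0.85. BRU1 (TR26717|c0_g2_i1), a xyloglucan-modifying enzyme first described as brassinosteroid-regulated in soybean, had 199, 176, and 277 FPKM in treated and 219, 214, and 169 FPKM in control buds at 6 dat. Levels at 3 dat were 194, 83.6, and 150.0 FPKM in treated and 758, 459.7, and 596 FPKM in control buds. Control buds were above all treated buds at 3 dat, and the groups overlapped at 6 dat, a difference of 2.23 (SE 0.37, adjusted p = 0.0156) that held in every fit that left out 1 library. A peroxygenase (TR24290|c0_g1_i2), an enzyme that oxidizes lipids, had 31.1, 31.1, and 36.4 FPKM in treated and 37.8, 32.7, and 40.3 FPKM in control buds at 6 dat, and 27.7, 20.9, and 24.9 FPKM in treated and 74.1, 48.7, and 70.1 FPKM in control buds at 3 dat, a difference of 1.20 (SE 0.20, adjusted p = 0.0195).

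**Figure D3:**
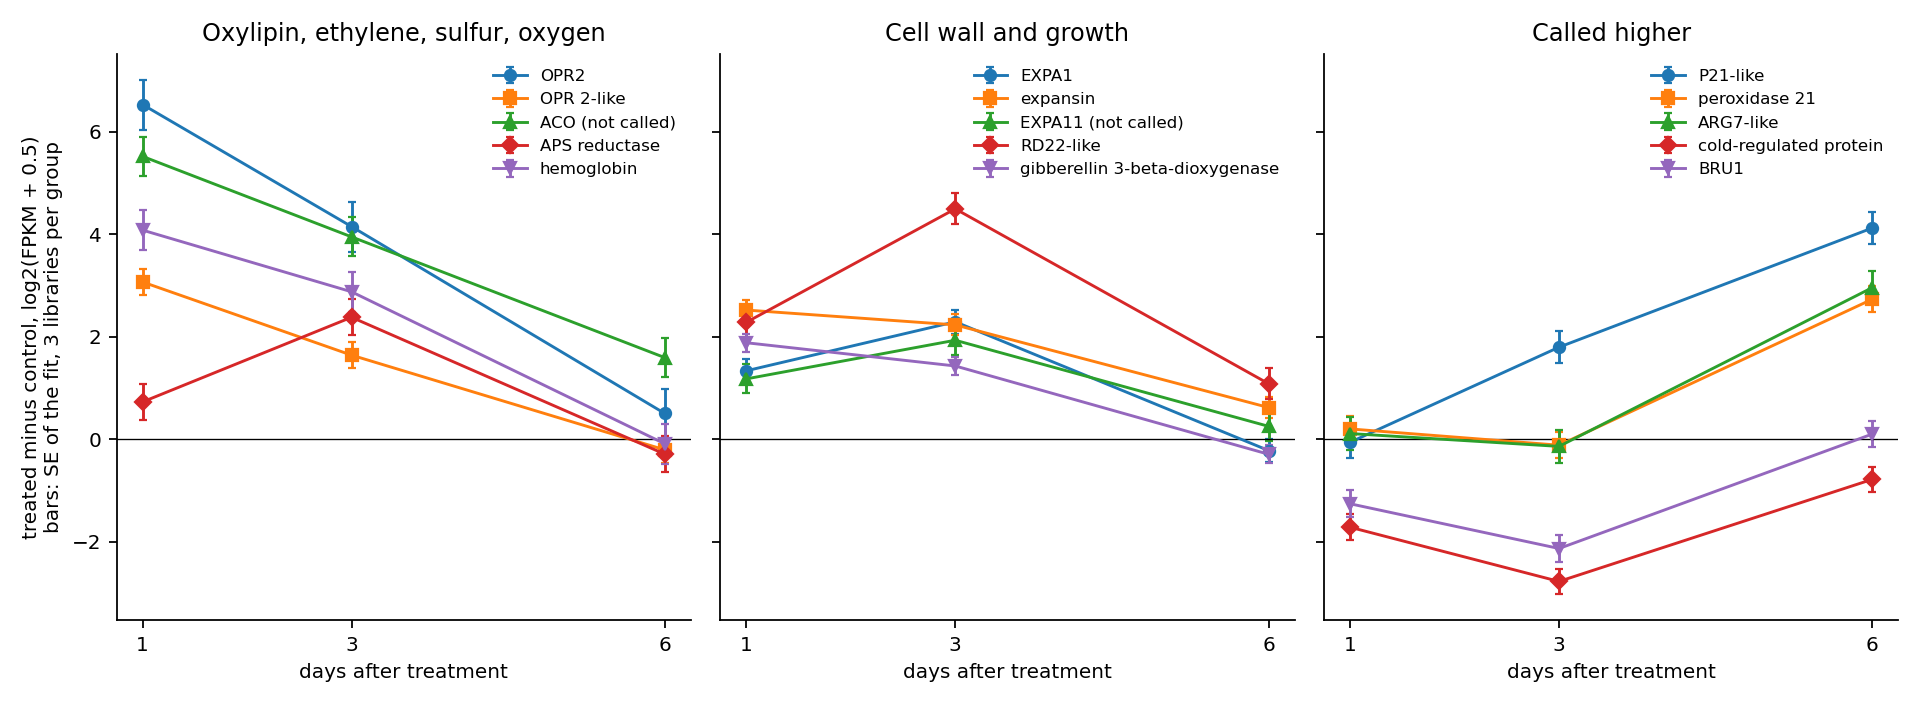
Treated minus control on log2(FPKM + 0.5) at 1, 3, and 6 dat (horizontal axis, days) with the SE of the fit, for transcripts of 3 groups, 3 libraries per group and day. In the left and middle panels every effect was lower at 6 dat than at 3 dat, and in the right panel P21-like reached 4.12 at 6 dat while BRU1 came back to 0.10.

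Of 35 transcripts that the study names with an identifier, 34 were tested and 2 were called, *OPR2* and *EXPA1*. In cyanide metabolism *CAS* (TR10732|c0_g1_i1), which joins cyanide to cysteine, had 192, 152, and 192 FPKM in treated and 69.1, 80.2, and 74.7 FPKM in control buds at 6 dat. The buds of 3 dat had 186, 261, and 121 FPKM in treated and 49.1, 51.5, and 45.9 FPKM in control buds. Treated buds exceeded control buds on both days, with effects of 1.25 at 6 dat and 1.88 at 3 dat, and the difference of -0.63 (SE 0.26, adjusted p = 0.394) did not pass. For *NIT4A*, the nitrilase of the next step, it was -0.28 (SE 0.19, adjusted p = 0.660), and for mandelonitrile lyase *MDL1*, which splits a cyanogenic compound, 0.43 (SE 0.84, adjusted p = 0.917). *UGT85A19*, which makes the cyanogenic glucoside prunasin in almond, had effects of 3.25 at 6 dat and 2.60 at 3 dat and differed by 0.64 (SE 0.41, adjusted p = 0.634). None of 23 cyanide and cyanogenic glucoside transcripts was called. The manganese superoxide dismutase *Mn-SOD* had 65.3, 56.4, and 55.6 FPKM in treated and 97.3, 110.4, and 83.0 FPKM in control buds at 6 dat. At 3 dat it had 59.2, 41.3, and 53.2 FPKM in treated and 146, 114, and 161 FPKM in control buds. Treated buds stayed below control buds on both days, and the difference of 0.74 (SE 0.20, adjusted p = 0.138) did not pass. The glutaredoxin *GRX* differed by -0.73 (SE 0.32, adjusted p = 0.421), and *ABA8OX4*, which breaks down abscisic acid, by -1.60 (SE 0.44, adjusted p = 0.140). A p that misses the threshold does not show that the effect was equal on both days.

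The 30 lists were made from descriptions of transcripts that the study had called on these buds, so their direction is no independent evidence. Of all tested transcripts 5.55% had a held description, and of the called ones 37.1%. Transcripts with a description had a median difference of -0.29, against -0.05 for all. Of these 3497 transcripts 64 were called lower and 11 higher. With isoforms summed, 123 of their 2604 genes were called lower and 29 higher. Lower medians than -1 were found for 12-oxophytodienoate reductases (-2.11), anther and pollen markers (-2.06), hypoxia-associated genes (-1.71), alkenal and furanone reductases (-1.39), glutathione S-transferases (-1.09), and the 3 green tissue markers tested (-1.09). With isoforms summed per assembled gene, these medians were -2.05 for 12-oxophytodienoate reductases, -1.61 for alkenal and furanone reductases, -0.81 for glutathione S-transferases, -0.34 for anther and pollen markers, -0.33 for hypoxia-associated genes, and 0.19 for green tissue markers, so the last changed sign. UDP-glycosyltransferases had a median of -0.76 over 119 transcripts, with 1 called higher and 1 lower. Of their 57 summed genes 1 was called higher and 3 lower. Heat shock proteins and chaperones had a median effect of -1.03 at 6 dat and 0.08 at 3 dat. None of these 33 transcripts was called, but 2 of 27 summed genes were called lower. Pathogenesis-related proteins kept median effects of 1.63 at 6 dat and 1.93 at 3 dat, with no call among 47. Of their 21 summed genes 2 were called higher, and the median difference of these genes was 0.17. MADS-box and flowering genes had a median difference of 0.00 and no call among 22.

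**Figure D4:**
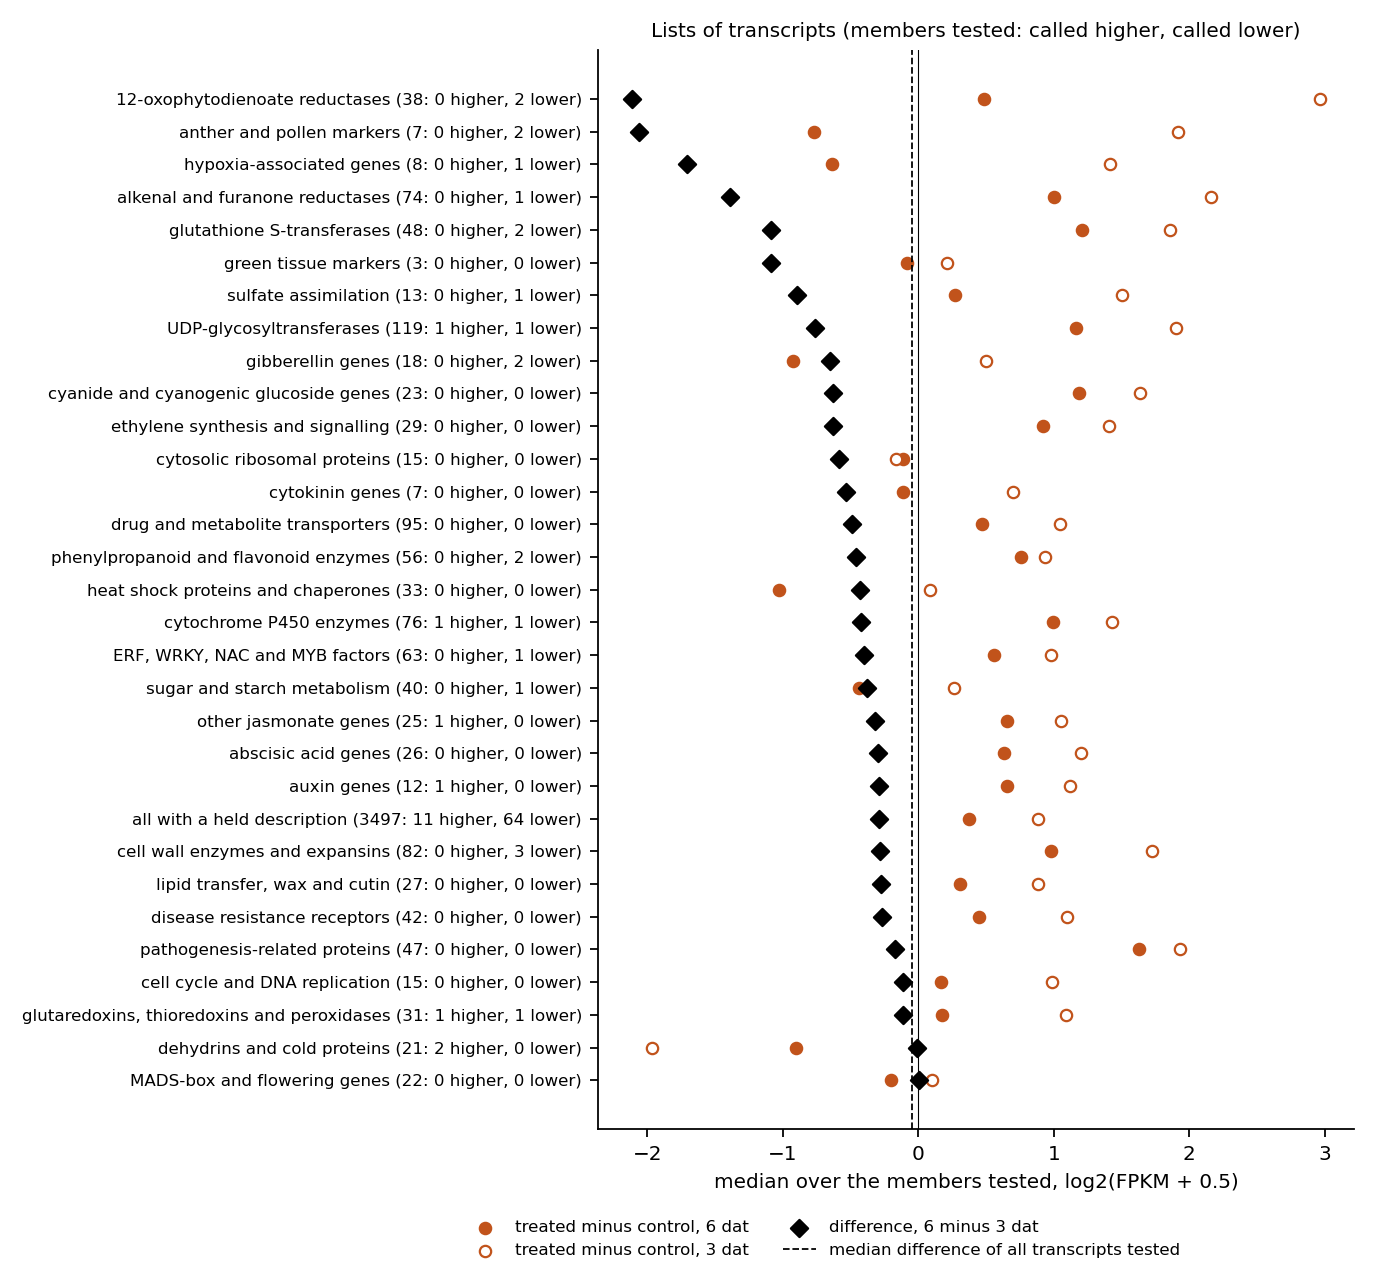
Median treated minus control at 6 dat (filled circles) and 3 dat (open circles) and median difference (diamonds), on log2(FPKM + 0.5), over the tested members of each list, with the number tested and called. The dashed line is the median difference of all transcripts tested, -0.05, and 12-oxophytodienoate reductases lie furthest below it at -2.11.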

How the data were processed

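Reads were trimmed (Trimmomatic 0.33), assembled de novo (Trinity), mapped (STAR), and quantified (eXpress 1.5.1) by the authors, who deposited FPKM for 112043 transcripts in 48840 assembled genes. The version of STAR is not given in the sources used here. FPKM divides by transcript length and mapped fragments, and eXpress apportions reads that match several isoforms. The study tested with EBSeq and used 2 replicates per group at 1 dat. Fragment counts were not used. As a rough guide to depth, the commonest step between low values of 24616 single-isoform transcripts differed at most 1.38-fold between libraries.

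Kept were 62976 transcripts that averaged 0.5 FPKM or more in the 18 treated and control libraries of 1, 3, and 6 dat. Values were transformed to log2(FPKM + 0.5), which understates changes of low transcripts. limma 3.58.1 in R 4.3.3 fitted the group means with a trend on the mean, moderated the variances, and tested the difference of effects (two-sided), with Benjamini-Hochberg adjustment over all transcripts tested. Adjusted p in the text are from this test. Calls needed adjusted p ≤ 0.05 and a difference of 1 or more in size. The 18 libraries left 12 residual degrees of freedom, the 12 libraries of 3 and 6 dat alone 8. Tables and plots were made with Python 3.11.15, numpy 2.4.6, pandas 2.3.3, and matplotlib 3.10.9, and the fit was tested on simulated data.

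Per the labels, every treatment group drew on the same trees (4, 5, and 6), and the library titles carry these numbers, which pair the libraries. Deviations from the group means correlated at -0.0604 to 0.0592 between libraries of a tree (18 pairs) and -0.119 to 0.126 between trees (36 pairs). The fit with the tree as a block is given beside a result where it changed the call.

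Named transcripts were all those the study names with an identifier, the 10 highest and 10 lowest differences among called transcripts with an informative held description, at least 5 FPKM in a group mean, the same sign in each tree, and 1 isoform per assembled gene, and in each list the 2 called members with the largest absolute difference. A second APS reductase, another expansin, gibberellin 2-beta-dioxygenases, and dehydrin isoforms fall outside this rule and were named after their values were seen. The same holds for the ERF113, alcohol dehydrogenase-like, and LOB domain transcripts. Lists were made by words in descriptions from the study's tables, of which 4957 were held, some tables only in part. Members and lists were chosen with earlier results of these data known. Alternatives were other pseudocounts, filters, rescaling, sets of libraries, the block, array weights, and isoforms summed per assembled gene. The sums for single named genes were added after seeing the data.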

Additional observations from a re-analysis of the deposited data

Results flagged for a closer look

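For 37 named transcripts the treatment effect differed between the days by the test of the difference itself. In order of size, the effect was lower at 6 dat than at 3 dat for the delta-7 desaturase isoform (-4.87), oligopeptide transporter 1 (-4.17), phloem protein 2-like A1 (-3.72), the P450 81D11-like isoform (-3.67), *OPR2* (-3.65), the transmembrane and coiled-coil protein 4-like isoform (-3.50), histidine-containing phosphotransfer protein 1-like (-3.43), RD22-like (-3.41), and a DYSFUNCTIONAL TAPETUM 1 isoform (-3.08). It was also lower for the hemoglobin isoform (-2.97), scopoletin glucosyltransferase-like (-2.96), UDP-glucose 6-dehydrogenase 5 (-2.91), the second DYSFUNCTIONAL TAPETUM 1 isoform (-2.82), APS reductase (-2.67), neomenthol dehydrogenase-like (-2.59), *EXPA1* (-2.51), NAC domain-containing protein 2-like (-2.46), cinnamoyl-CoA reductase 2-like (-2.45), both gibberellin 3-beta-dioxygenase isoforms (-2.37 and -1.72), and both glutathione S-transferases (-2.33 and -2.21). Differences nearer to 0 were those of leucoanthocyanidin reductase 1 (-2.08), trehalose-phosphate phosphatase D (-1.91), the 12-oxophytodienoate reductase 2-like transcript (-1.85), an expansin (-1.61), and peroxidase 51-like (-1.52). The effect was higher at 6 dat for UDP-glycosyltransferase 85A7-like (3.31), ARG7-like (3.10), P450 704B1 (3.07), peroxidase 21 (2.85), P21-like (2.33), the 23 kDa jasmonate-induced protein-like transcript (2.30), BRU1 (2.23), the cold-regulated protein (1.99), CS120-like (1.99), and the peroxygenase (1.20). Of these 37, 11 were called in each fit that left out 1 library, 29 in the fit blocked by tree, 27 after rescaling, and 2 with only the 12 libraries of 3 and 6 dat.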

How the results depend on the processing

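Of 202 calls (59 higher, 143 lower), the counts stayed within 1.5 times with pseudocounts of 0.1 and 1 FPKM, no filter, a minimum mean of 1 FPKM, array weights, or all 21 libraries. The fit blocked by tree, which uses the pairing of libraries, gave 167 (51 higher, 116 lower), 147 of them shared, and changed no call of a named transcript other than those given above. Only the 12 libraries of 3 and 6 dat gave 7 calls (1 higher, 6 lower), and with the block 3 (1 higher, 2 lower). Leaving out both libraries of tree 4 at 1 dat gave 131 (86 lower), rescaling by median ratios gave 92 lower, and no limit on the difference gave 90 higher. Isoforms summed per assembled gene gave 413 (110 higher, 303 lower), and 144 of the 188 genes with a called transcript were among them. Leaving out 1 library gave 81 to 273 calls, 27 to 79 higher and 53 to 198 lower, and the count of higher calls moved over 1.5 times also without control tree 5 of 6 dat (37). The sign turned in 22 of 2053 values of named transcripts, in 13 transcripts. Summed isoforms gave 0.33 for the called desaturase and 0.059 for the called transmembrane and coiled-coil protein 4-like isoform, and among transcripts not called 0.34 for a beta-glucosidase, 0.80 for *CAT1*, and -0.47 for *CYP71AN24*. A pseudocount of 0.1 FPKM gave -0.17 for *CYP94C1* and -0.25 for *ACS*. Leaving out 1 library gave -0.036 to 0.35 for MYB21, -0.56 to 0.18 for MYB108, -0.12 to 1.27 for *MDL1*, -0.67 to 0.71 for *ACS*, -2.26 to 0.38 for *GST23*, -0.082 to 0.73 for *LOG5*, and -0.81 to 0.28 for *EXLB1*, none of them called. The cause was not tested. Sequencing depth was not used, so its limit on low transcripts is unknown.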
